A study of Mus musculus with 6 samples.

Results

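A set of 10 genes of the type I interferon response was followed in mouse kidney during natural aging. They were chosen by symbol (Ifit1, Ifit2, Ifit3, Isg15, Oasl2, Irf7, Usp18, Rtp4, Ifi44 and Bst2) and matched by Ensembl gene ID. All 10 were found among the 12666 genes of the deposited table that holds both ages, and all 10 among the 13606 genes of a separate deposited table. RNA-seq of total RNA from whole kidney of wild-type (WT) mice was available for 4 libraries labelled 24M and 2 labelled 2M, with no treatment named. The labels name no strain, sex or pooling and do not say whether each library is its own animal. The p-values therefore speak only of the spread between these libraries, which may be technical. The libraries 24M_1, 24M_2, 2M_1 and 2M_2 share a table, in which changes with age were tested, and 24M_3 and 24M_4 come from the separate table, whose levels are set beside the others without a test. Values are FPKM, fragment counts scaled by transcript length and library size, and the read depth of each library is unknown.

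Type I interferons are secreted when cells sense viral or misplaced nucleic acid. They bind the receptor made of Ifnar1 and Ifnar2, which activates the kinases Jak1 and Tyk2 and, through them, a complex of transcription factors that binds the interferon-stimulated response element in the promoters of its target genes. In kidney such targets are read as a sign of interferon exposure in tubular, vascular and immune cells. In bulk tissue, fewer cells of a type and less RNA per cell cannot be told apart.

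The promoters are shown because the members are defined by their response to this pathway. RefSeq promoters (GRCm38.p6, 250 bases before to 50 bases after the start site) were matched for 8 of the 10 members, all but Usp18 and Rtp4. The repeated core of the response element was searched as GAAA, any 2 bases and GAAA again, on both strands (TTTC, any 2 bases and TTTC on the other), and overlapping matches were kept. It was found in 4 of the 8 members, Ifit1, Ifit3, Isg15 and Bst2, and in 3.44% of all 32851 promoters of this length. No match says only that these letters are not in this window, which was the case for Ifit2, Oasl2, Irf7 and Ifi44. The stretches below hold the matches with 20 bases on each side, 5′ to 3′ on the strand of the gene, with the matched letters in capitals. They lie at chr19:34583353-34583436 (plus strand) for Ifit3, chr19:34607749-34607832 (plus strand) for its close relative Ifit3b, chr19:34640765-34640833 (plus strand) for Ifit1, chr4:156200855-156200916 (minus strand) for Isg15 and chr8:71537567-71537622 (minus strand) for Bst2.
Ifit3: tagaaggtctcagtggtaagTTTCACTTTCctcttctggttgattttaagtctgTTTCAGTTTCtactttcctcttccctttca
Ifit3b: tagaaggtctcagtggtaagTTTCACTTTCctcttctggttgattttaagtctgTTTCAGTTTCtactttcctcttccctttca
Ifit1: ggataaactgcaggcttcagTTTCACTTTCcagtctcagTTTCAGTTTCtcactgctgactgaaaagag
Isg15: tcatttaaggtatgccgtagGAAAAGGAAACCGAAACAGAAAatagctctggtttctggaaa
Bst2: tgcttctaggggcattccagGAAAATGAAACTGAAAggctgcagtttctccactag
The stretches of Ifit3 and Ifit3b are identical in all 84 bases, and Ifit1 carries the same matched letters, TTTCACTTTC and TTTCAGTTTC, at a closer spacing. The matches end 113 bases before the start site in Ifit3, 145 in Ifit3b, 76 in Ifit1, 57 in Isg15 and 115 in Bst2. Isg15 holds 3 overlapping matches and Bst2 holds 2. The gamma-activated site, searched as TTCNNNGAA, which reads the same on both strands, was found in 2 of the 8 members, Ifit2 and Bst2, and in 8.3% of all promoters. The response element was also found in 15 of 36 promoters of other type I genes and in 10 of 13 of genes associated with interferon-gamma. These matches describe letters and do not show binding.

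The kidney label was borne out by its markers. The phosphate transporter Slc34a1 of the proximal tubule stood between 346 and 813 FPKM in the 6 libraries and the endocytic receptor Lrp2 of the same cells between 95.7 and 175.9. Over the 12546 genes of both tables, libraries of unlike tables had an across-gene Pearson r of 0.894 to 0.939 on log2(FPKM + 1), and 24M_3 had 0.951 with 24M_4. Within an age of the tested table r was at least 0.989. The library 24M_3 stood apart in immune genes. The 12 macrophage markers summed to 876 FPKM there, against 127 in 24M_4, 79.6 in 24M_1, 79.0 in 24M_2, 59.6 in 2M_1 and 68.7 in 2M_2.

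**Figure D1:**
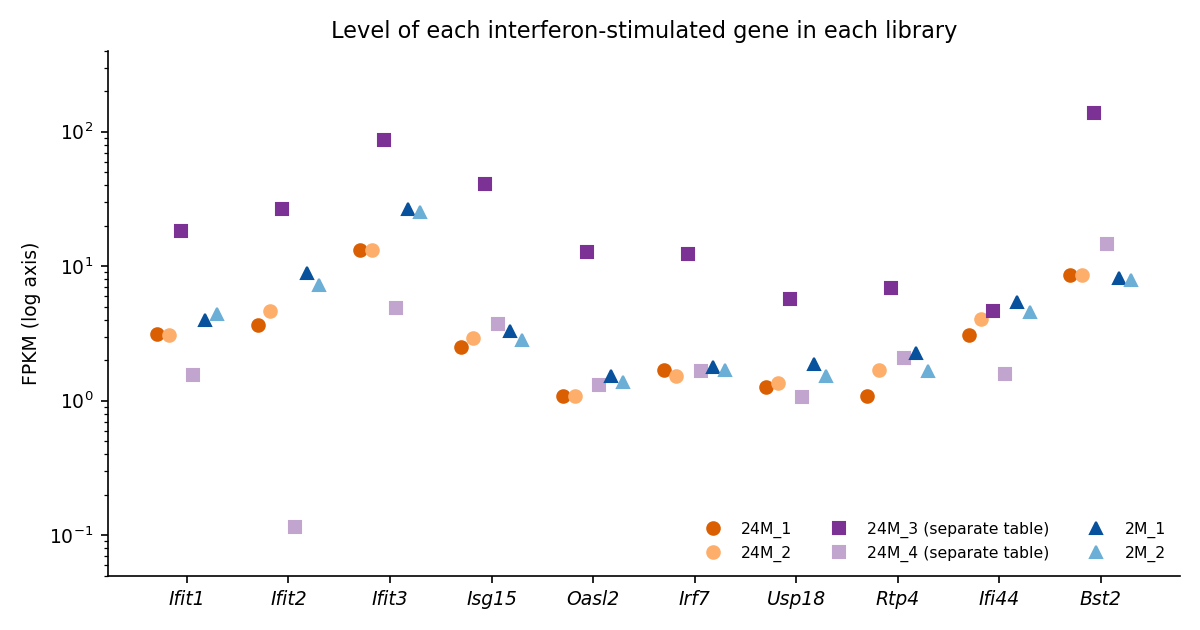
FPKM (log axis) of each of the 10 genes in the 4 libraries of 24M and the 2 of 2M, with 1 symbol per library and squares for the separate table. 24M_3 is the highest library for 9 of the 10 genes, and the lowest point is Ifit2 in 24M_4, at 0.114 FPKM.

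In the table that holds both ages, Ifit3 was lower in 24M kidney, at 51.0% of the 2M mean, and Ifit2 had a change of like size that did not pass the test. Of the other 8 members, 7 had smaller negative changes and Bst2 a small positive change, none past the test. Of the 10 members, all tested, 1 was lower and none higher at a limma adjusted p below 0.05 (Benjamini-Hochberg over 11437 genes). Among all genes tested, 0.813% were called lower and 0.761% higher. At an unadjusted limma p below 0.05, 4 members were lower and none higher, against 9.94% and 6.96% of all genes. The median log2 change was -0.28 over the members and -0.02 over all genes tested. All log2 values here are of FPKM + 1, so changes of genes near or below 1 FPKM are understated.

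The Ifit genes encode cytosolic proteins, of which Ifit1 binds RNA bearing foreign ends and blocks its translation. Ifit3 (ENSMUSG00000074896, chromosome 19, 34583531 to 34588731, plus strand, in the GENCODE annotation of GRCm38 used for all gene positions here) had 13.2 FPKM in 24M_1 and 13.2 in 24M_2, against 26.7 in 2M_1 and 25.1 in 2M_2. The groups did not overlap, and the libraries of an age lay close together. The 24M mean was 13.2 ± 0.0275 FPKM, against a 2M mean of 25.9 ± 1.11 (SD over 2 libraries each). Ifit3 fell by 0.92 ± 0.07 on the log2 scale (SE; 95% interval -1.10 to -0.74, limma adjusted p = 0.0115). The call ended without 2M_1 (limma adjusted p = 0.139) and without 2M_2 (0.142), and it ended when the spread was estimated also from the pair 24M_3 and 24M_4 (0.958). Of the 50-base windows of its transcripts, 51.2% also occur in Ifit3b, so the split of reads between the pair is uncertain.

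Ifit2 (ENSMUSG00000045932, chromosome 19, 34550694 to 34576419, plus strand) had 3.67 FPKM in 24M_1 and 4.64 in 24M_2, against 8.92 in 2M_1 and 7.23 in 2M_2. Here too the ages did not overlap, but the libraries of an age differed more from each other than for Ifit3. The log2 change was -0.82 ± 0.14 (SE; 95% interval -1.17 to -0.46), with a limma adjusted p of 0.0658 that missed the threshold. No 50-base window of Ifit2 occurred in another gene, so its reads of that length are not shared with its relatives. Ifit1 (ENSMUSG00000034459, chromosome 19, 34640871 to 34650009, plus strand) had 3.15 FPKM in 24M_1 and 3.09 in 24M_2, against 3.98 in 2M_1 and 4.40 in 2M_2. Its log2 change was -0.33 ± 0.10 (SE, limma adjusted p = 0.195), and 7.06% of its windows occur in Ifit1bl2.

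The 3 Ifit members sit together with Ifit1bl1, Ifit3b and Ifit1bl2 on chromosome 19, between Lipa, which encodes lysosomal acid lipase, and Slc16a12, a creatine transporter. For all 6 Ifit genes of this cluster both 24M libraries of the tested table lay below both 2M libraries, which held for 29.6% of all genes tested. Of these genes, Ifit1bl1 and Ifit1bl2 reached the 1 FPKM required for testing only in 2M, so their lower place in 24M was nearly fixed by that filter. The log2 changes ran from -0.92 for Ifit3 to -0.24 for Ifit1bl2, and Ifit3b had -0.56 ± 0.09 (SE, limma adjusted p = 0.0542). Because Ifit3 and Ifit3b share letters, they were also summed into 1 gene, an alternative chosen after the values were seen, which gave -0.85 on the log2 scale (limma adjusted p = 0.0126). On the far side of Ifit1, Slc16a12 had 30.8 FPKM in 24M_1 and in 24M_2, 33.3 in 24M_3 and 33.5 in 24M_4, against 34.1 in 2M_1 and 32.8 in 2M_2 (log2 change -0.11, limma adjusted p = 0.442). Its 24M_1 and 24M_2 levels lay just below those of 2M, and 24M_3 and 24M_4 lay between the 2M libraries. Lipa had 47.1 FPKM in 24M_1 and 23.7 in 24M_2, against 42.1 in 2M_1 and 23.3 in 2M_2. Its libraries of an age differed by more than the ages did (log2 change 0.09, limma adjusted p = 0.949), and the separate table had 100.9 in 24M_3 and 90.3 in 24M_4. Beyond Lipa, Ch25h, which makes 25-hydroxycholesterol, had 1.43 FPKM in 24M_1, 4.44 in 24M_2, 3.67 in 24M_3 and 1.23 in 24M_4, against 0.613 in 2M_1 and 0.442 in 2M_2 (log2 change 1.25, limma adjusted p = 0.284). Ch25h reached 1 FPKM only in the 24M libraries.

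**Figure D2:**
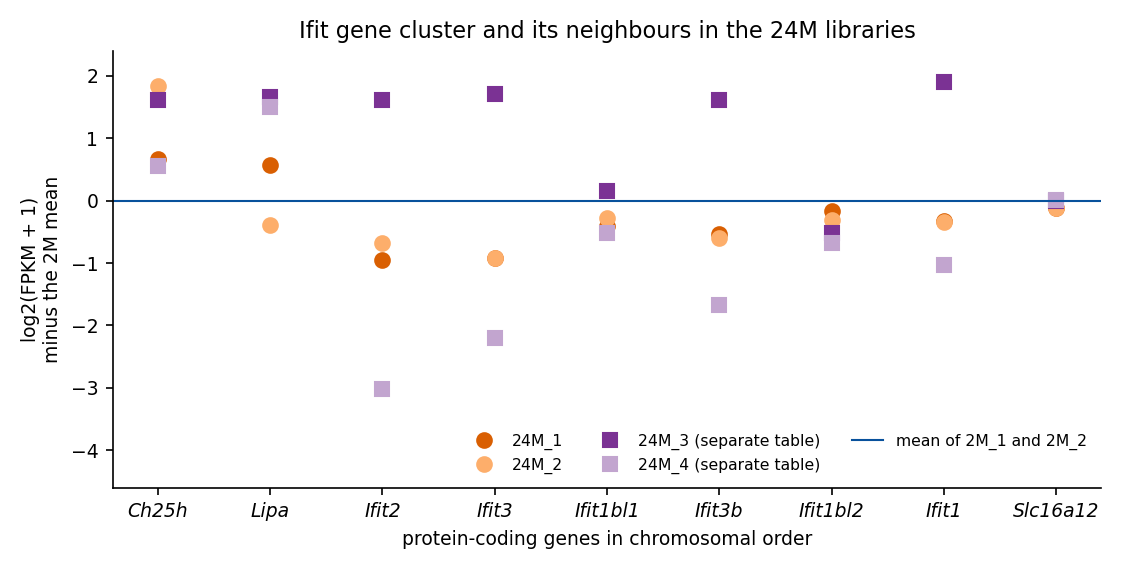
Log2(FPKM + 1) of each 24M library minus the mean of the 2M libraries (horizontal line at 0) for the protein-coding genes of the Ifit region in chromosomal order; squares are the separate table. The 6 Ifit genes lie below 0 in 24M_1, 24M_2 and 24M_4, and Slc16a12 lies between -0.11 and 0.01 in all 4 libraries.

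Isg15 and Usp18 form a cycle of attachment and removal: Isg15 is a ubiquitin-like protein that is joined to other proteins, and Usp18 takes it off and also restrains signalling at Ifnar2. Isg15 (ENSMUSG00000035692) lies on the minus strand of chromosome 4, from 156199424 to 156200818, and Usp18 (ENSMUSG00000030107) on the plus strand of chromosome 6, from 121245906 to 121270917. Isg15 had 2.52 FPKM in 24M_1 and 2.92 in 24M_2, against 3.28 in 2M_1 and 2.82 in 2M_2. Usp18 had 1.26 FPKM in 24M_1 and 1.36 in 24M_2, against 1.88 in 2M_1 and 1.52 in 2M_2. The ages overlapped for Isg15 and did not for Usp18. The log2 change was -0.12 ± 0.12 for Isg15 (SE, limma adjusted p = 0.652) and -0.22 ± 0.12 for Usp18 (SE, limma adjusted p = 0.425). The 95% intervals were -0.42 to 0.17 for Isg15 and -0.52 to 0.08 for Usp18. An opposite-strand lincRNA, Gm44148, overlaps exons of Usp18, and whether the counting used strand is not stated.

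Irf7 is the transcription factor that amplifies interferon production, and Oasl2 belongs to the oligoadenylate synthetase-like proteins, which act in antiviral sensing. Irf7 (ENSMUSG00000025498) lies on the minus strand of chromosome 7, from 141262706 to 141266481, and Oasl2 (ENSMUSG00000029561) on the plus strand of chromosome 5, from 114896936 to 114912234. Irf7 had 1.69 FPKM in 24M_1 and 1.53 in 24M_2, against 1.78 in 2M_1 and 1.70 in 2M_2. Oasl2 had 1.08 FPKM in 24M_1 and 1.09 in 24M_2, against 1.52 in 2M_1 and 1.38 in 2M_2. Both lay lower in 24M without overlap, Irf7 by a narrow margin. The log2 change was -0.07 ± 0.11 for Irf7 (SE, limma adjusted p = 0.785) and -0.23 ± 0.11 for Oasl2 (SE, limma adjusted p = 0.366). Exons of Irf7 overlap Phrf1 on the opposite strand.

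Rtp4 is a receptor transport protein, Ifi44 a cytosolic interferon-induced protein, and Bst2 (tetherin) an anchor that holds budding virus at the cell surface. Rtp4 (ENSMUSG00000033355) spans 23520291 to 23614222 on the plus strand of chromosome 16. Ifi44 (ENSMUSG00000028037) spans 151730922 to 151749960 on the minus strand of chromosome 3, and Bst2 (ENSMUSG00000046718) spans 71534255 to 71537456 on the minus strand of chromosome 8. Of the 50-base windows of Rtp4, 11.6% also occur in Gm45338, an overlapping gene on the same strand. Ifi44 had 3.10 FPKM in 24M_1 and 4.03 in 24M_2, against 5.41 in 2M_1 and 4.59 in 2M_2. Rtp4 had 1.08 and 1.68 FPKM in 24M_1 and 24M_2, against 2.25 in 2M_1 and 1.67 in 2M_2. The ages were apart for Ifi44 and overlapped for Rtp4. The log2 change was -0.40 ± 0.14 for Ifi44 (SE, limma adjusted p = 0.247) and -0.32 ± 0.17 for Rtp4 (SE, limma adjusted p = 0.420). Bst2 was the single member with a positive change, at 8.63 FPKM in 24M_1 and 8.67 in 24M_2, against 8.11 in 2M_1 and 7.86 in 2M_2. That change, 0.10 ± 0.08 (SE), did not pass either (limma adjusted p = 0.579). In all, both 24M libraries lay below both 2M libraries for 7 of the 10 members and above them for 1, against 29.6% and 20.8% of all genes tested.

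**Figure D3:**
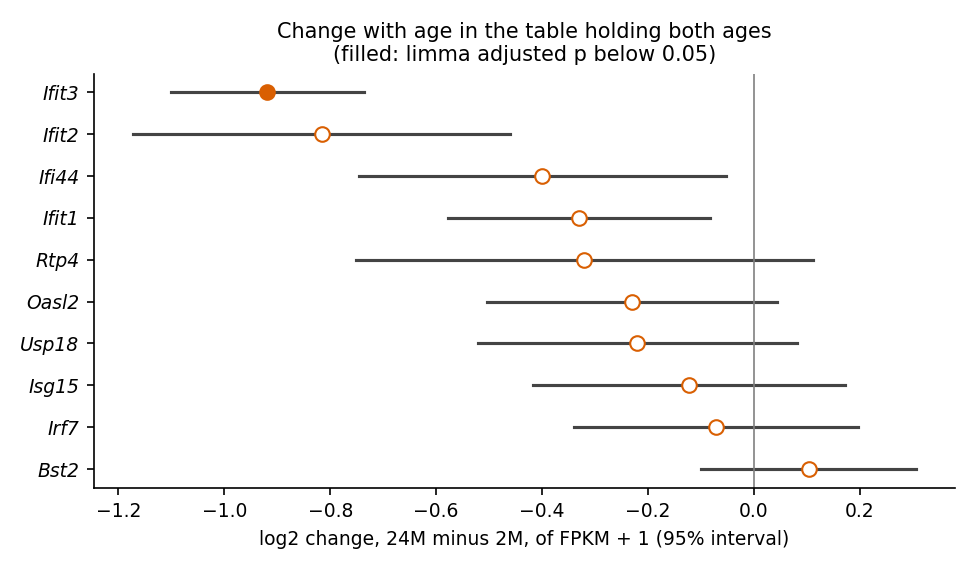
Log2 change of FPKM + 1, 24M minus 2M, with its 95% interval for each of the 10 genes (2 libraries per age); the filled point is past a limma adjusted p of 0.05. Ifit3 is the filled point at -0.92, and Bst2 is the single gene above 0, at 0.10.

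In the separate table, the library 24M_3 stood above all others for 9 of the 10 members, and 7 lay below both 2M libraries in 24M_4. Ifit3 had 86.6 FPKM in 24M_3 and 4.85 in 24M_4, Ifit2 had 26.6 and 0.114, and Ifit1 had 18.4 and 1.55. Isg15 had 40.8 FPKM in 24M_3 and 3.71 in 24M_4, and Bst2 had 138.5 and 14.5. Of these genes, the Ifit members stood in 24M_4 below every other library, while Isg15 and Bst2 stood above both 2M libraries. Oasl2 had 12.8 FPKM in 24M_3 and 1.30 in 24M_4, Irf7 had 12.3 and 1.66, and Usp18 had 5.66 and 1.07. Rtp4 had 6.92 FPKM in 24M_3 and 2.08 in 24M_4, and Ifi44 had 4.61 and 1.57. The ratio of 24M_3 to 24M_4 ran from 2.94 for Ifi44 to 17.8 for Ifit3 and reached 233 for Ifit2, whose level in 24M_4 was near 0. Ifi44 was the exception in 24M_3, where its level lay between those of the 2M libraries.

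Set against all genes, 24M_3 stood above the 5 other libraries for 9 of the 10 members, which held for 28.2% of 11418 genes tested and listed in both tables. All 10 members were higher in 24M_3 than in 24M_4 by at least 1 on the log2 scale, against 4.21% of those genes, and 9 were higher than the 2M mean by that much, against 7.43%. For 24M_3 minus 24M_4 the median difference was 2.76 over the members and 0.11 over all genes. The library 24M_4 lay below both 2M libraries for 7 of the 10 members, a share to be read against 53.6% of all genes. As a share of the 2M mean, 24M_4 had 1.42% for Ifit2, 18.7% for Ifit3 and 31.3% for Ifi44, against 182% for Bst2. For 6 members 24M_1, 24M_2 and 24M_4 all lay below both 2M libraries while 24M_3 lay above both, a pattern shared by 342 of the 11418 genes (3.0%). The library 24M_4 lay below the 5 other libraries for all 6 Ifit genes of the cluster, against 34.1% of all genes. Percentile ranks within a library, which do not depend on how a table was scaled, gave the same order for Ifit3. It stood at 72.3 in 24M_1, 72.1 in 24M_2, 95.9 in 24M_3 and 47.5 in 24M_4, against 85.6 in 2M_1 and 84.7 in 2M_2. For Bst2 the ranks were 61.3, 61.5, 97.7 and 75.9 in 24M_1 to 24M_4, against 58.9 in 2M_1 and 58.8 in 2M_2. The library 24M_4 of the same table did not reach these levels for any member, and with 1 such library the height of 24M_3 has no replicate check.

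Macrophage, pan-leukocyte, T cell and natural killer cell markers were high in 24M_3, as the members were. By at least 1 on the log2 scale, all 12 macrophage and all 5 pan-leukocyte markers were higher in 24M_3 than in 24M_4. This held for 4.21% of the genes tested and listed in both tables. The pan-leukocyte markers summed to 110.5 FPKM in 24M_3, 27.7 in 24M_4, 11.9 to 12.2 in the other 24M libraries and 9.52 to 10.9 in 2M. All 8 T and natural killer cell markers listed in the separate table were higher in 24M_3 by any amount. They summed to 51.9 FPKM in 24M_3 and 4.87 in 24M_4. No share of all genes was counted for that measure, where the median difference over all genes was 0.11. Of the 11 T and natural killer cell markers looked for, 2 are listed in the tested table, Cd3g and Nkg7. Their sums were 0.869 and 1.33 FPKM in 24M_1 and 24M_2. In 2M the sums were 0.493 in 2M_1, where Nkg7 is listed at 0, and 0.746 in 2M_2. The cytotoxic granule gene Gzmb, named after its values were seen, stood at 11.3 FPKM in 24M_3 and is listed at 0 in 24M_4. In the tested table the macrophage sums were 79.6 and 79.0 FPKM in 24M_1 and 24M_2, against 59.6 in 2M_1 and 68.7 in 2M_2. Of the 10 macrophage markers tested, 1 was higher, the complement gene C1qa (limma adjusted p = 0.0215), where 0.761% of all genes were called higher. At an unadjusted limma p below 0.05, 5 were higher and none lower, against 6.96% and 9.94% of all genes. Of the 10 macrophage changes 1 was negative, against 56.3% of all genes. The part of these cells in the levels of the interferon-stimulated genes was not tested. Markers of plasmacytoid dendritic cells, a main source of type I interferon, were sparse: of 4, only Cox6a2 and Ly6d are listed. They summed to 1.35, 2.80, 4.06 and 2.55 FPKM in 24M_1 to 24M_4, against 4.88 in 2M_1 and 4.31 in 2M_2. The log2 change was -0.02 for Cox6a2 (limma adjusted p = 0.952) and -1.32 for Ly6d (limma adjusted p = 0.169). The lower sums in 24M_1 and 24M_2 thus rest on Ly6d and do not speak for the cell type. Of 9 immediate-early genes tested, which respond within minutes of tissue handling or stress, 4 were higher in 24M_1 and 24M_2 by limma (Egr2, Ier2, Atf3 and Arc). None was lower. Among all genes 0.761% were called higher and 0.813% lower. The 9 genes summed to 184.9, 226.1, 117.3 and 27.4 FPKM in 24M_1 to 24M_4, against 32.7 in 2M_1 and 73.0 in 2M_2. In 24M_4 the sum thus lay below both 2M libraries. Of 6 adipocyte markers 5 were lower (Adipoq, Cfd, Cidea, Ucp1 and Retn), but all 5 reached 1 FPKM only in 2M and passed the filter through that age alone. Egr2 likewise passed through 24M alone. Of 5 red cell markers 1 was lower by limma, Hbb-bt. At an unadjusted limma p below 0.05 all 5 were lower, against 9.94% of all genes, with a median log2 change of -2.23. Alas2, 1 of the 5, passed the filter through 2M alone. The joining chain gene Jchain of plasma cells was higher, at 16.7 and 12.3 FPKM in 24M_1 and 24M_2, against 0.757 in 2M_1 and 1.17 in 2M_2 (limma adjusted p = 0.00844). In the separate table Jchain had 179.2 FPKM in 24M_3 and 59.5 in 24M_4. Among markers of kidney cells, 1 of 4 of the distal tubule was called higher by limma (Slc12a3). Called lower were 1 of 6 of the collecting duct (Aqp4) and 1 of 8 endothelial markers (the receptor Tek). At an unadjusted limma p below 0.05, 4 endothelial and 2 collecting duct markers were lower and none higher. Of the distal tubule markers 2 were higher and 1 lower at that p. The shares of all genes were 9.94% lower and 6.96% higher. Among the distal tubule markers 2 changes were positive and 2 negative, and among the endothelial markers 3 were positive and 5 negative. All 6 collecting duct changes were negative. The 8 endothelial markers summed to 90.2, 82.6, 52.1 and 49.3 FPKM in 24M_1 to 24M_4, against 104.1 in 2M_1 and 96.1 in 2M_2. All 8 lay below both 2M libraries in 24M_4, against 53.6% of all genes. The same held for each of them in 24M_3, so it was shared by the separate table. The 7 urothelial markers summed to 1.03, 13.7, 4.16 and 2.60 FPKM in 24M_1 to 24M_4, against 31.5 in 2M_1 and 24.95 in 2M_2. All 7 had both 24M_1 and 24M_2 below both 2M libraries, as did 29.6% of all genes tested. Krt20 passed the filter through 2M alone, so its lower place in 24M was nearly fixed. The median log2 change was -1.41, and none passed the limma threshold. At an unadjusted limma p below 0.05, 3 were lower, against 9.94% of all genes. The red cell markers summed to 23.4, 48.6, 199.9 and 167.8 FPKM in 24M_1 to 24M_4, against 196.5 in 2M_1 and 155.5 in 2M_2. Only the sums of 24M_1 and 24M_2 lay below those of 2M. The part of these gene groups in the members' levels was not tested.

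Other type I interferon-stimulated genes were taken from a list of 47, of which 34 were tested. None passed in either direction by limma, and 8 were lower and none higher at an unadjusted p below 0.05, where 9.94% of all genes were lower and 6.96% higher. Of the 34, 2 passed the filter through 2M alone and 1 through 24M alone. The median log2 change was -0.18, and 30 of the 34 changes were negative, as were 56.3% of all genes. After Ifit3b, the smallest p values were those of Ube2l6, the conjugating enzyme for Isg15, of Samd9l, an antiviral and growth-suppressing protein, and of Ifi27l2a. Ube2l6 had 3.22 FPKM in 24M_1 and 3.49 in 24M_2, against 5.05 in 2M_1 and 4.85 in 2M_2 (limma adjusted p = 0.103). Samd9l had 52.3 and 46.5 FPKM in 24M_1 and 24M_2, against 69.2 and 61.6 in 2M_1 and 2M_2 (limma adjusted p = 0.122). For both genes the ages did not overlap, and the same was true of Ifi27l2a (limma adjusted p = 0.162). Of the 39 genes of this list found in both tables, 31 were higher in 24M_3 than in 24M_4 by at least 1 on the log2 scale, with a median difference of 1.47.

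None of the 11 interferon ligands looked for was listed in the tested table. Only Ifng appeared in the separate table, at 1.84 FPKM in 24M_3 and listed at 0 in 24M_4. The tested table lists no gene whose larger age mean is below 0.501 FPKM. Ligands and cell markers not listed there may still be expressed at a low level. Of 12 receptor and JAK-STAT genes, 11 were tested and none passed by limma, with 1 higher and 1 lower at an unadjusted p below 0.05, near the 6.96% and 9.94% of all genes. The higher gene was the receptor chain Ifnar1 and the lower the receptor chain Ifnar2. Ifnar1 had 8.18 FPKM in 24M_1 and 7.34 in 24M_2, against 5.03 in 2M_1 and 6.44 in 2M_2 (limma adjusted p = 0.235), and Ifnar2 had 14.3 and 13.3 in 24M_1 and 24M_2, against 16.4 and 15.9 in 2M_1 and 2M_2 (limma adjusted p = 0.262). For the transcription factor Stat3 the value was 0.15 (log2 change; limma adjusted p = 0.504).

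Of 16 sensors and adaptors, which detect nucleic acid and start interferon production, 10 were tested and none passed by limma, with 2 higher and 1 lower at an unadjusted p below 0.05 (6.96% and 9.94% of all genes). Tmem173, the STING adaptor of cytosolic DNA sensing, had 1.19 FPKM in 24M_1 and 1.10 in 24M_2, against 0.624 in 2M_1 and 0.654 in 2M_2 (log2 change 0.39, limma adjusted p = 0.185). Irf5, a transcription factor downstream of Toll-like receptors, had 3.23 and 2.95 FPKM in 24M_1 and 24M_2, against 4.43 and 4.84 in 2M_1 and 2M_2 (log2 change -0.46, limma adjusted p = 0.111). The adaptor Myd88 and the myeloid factor Irf8 stood at 0.27 and 0.30 on the log2 scale (limma adjusted p = 0.225 and 0.331). Myd88 and Irf8 lay higher in 24M without overlap, and Irf5 lay lower. Tmem173 reached 1 FPKM only in 24M and was tested through that age alone, so its higher place there was nearly fixed by the filter. Of 12 genes that restrain the pathway or remove nucleic acid, 10 were tested and none passed by limma, with 1 higher and none lower at an unadjusted p below 0.05 (6.96% and 9.94% of all genes). That gene was Dnase2a, the lysosomal DNase, at 4.48 FPKM in 24M_1 and 4.38 in 24M_2, against 3.55 in 2M_1 and 3.24 in 2M_2 (limma adjusted p = 0.214). Rnaseh2c, Socs3 and Rnaseh2b had limma adjusted p values of 0.340 to 0.496.

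**Figure D4:**
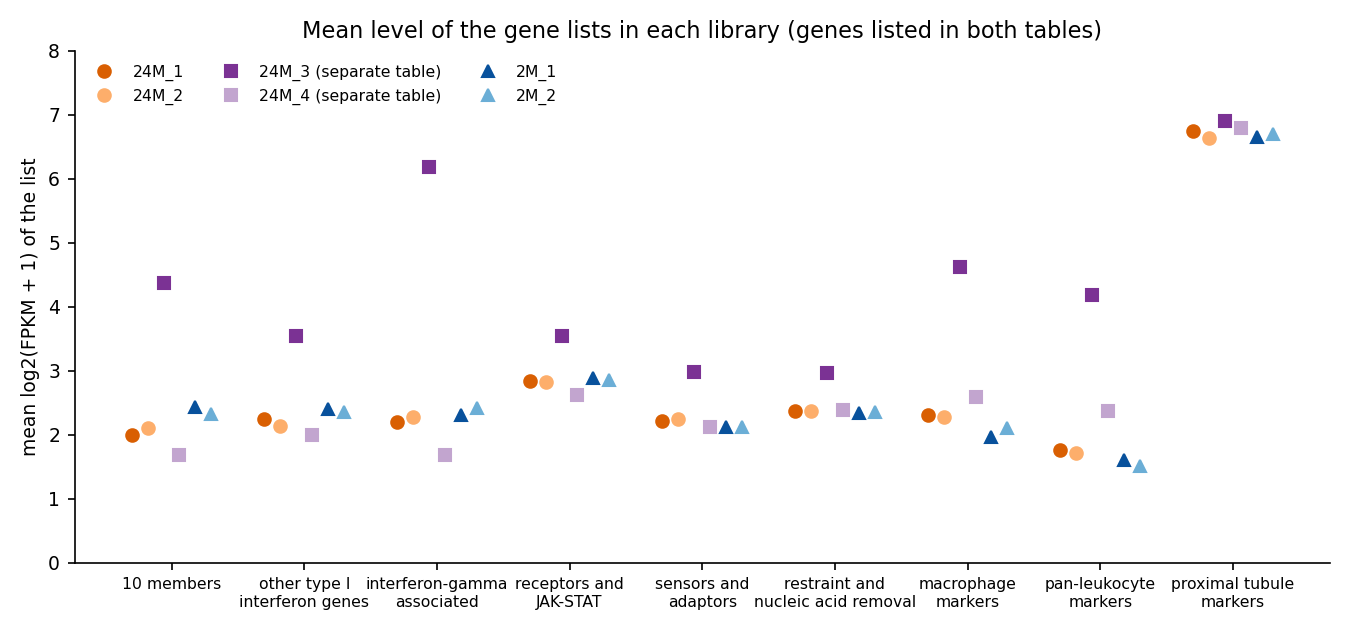
Mean log2(FPKM + 1) per library of the 10 members, of other lists of the interferon pathway and of cell type markers, over genes listed in both tables; squares are the separate table. The members lie at 2.00 and 2.10 in 24M_1 and 24M_2, 4.38 in 24M_3 and 1.69 in 24M_4, against 2.44 and 2.32 in 2M, while proximal tubule markers stay near 6.6 to 6.9 in all 6 libraries.

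Genes associated with interferon-gamma, the T and natural killer cell interferon, stood high in 24M_3. All 16 listed in both tables were at least 1 higher in 24M_3 on the log2 scale, with a median difference of 4.32, against 2.76 for the members. The GTPase Iigp1 had 309 FPKM in 24M_3 and 2.03 in 24M_4, and Gbp2 had 187.7 and 2.72. The GTPase Gbp3 had 60.3 FPKM in 24M_3 and 2.33 in 24M_4, and the chemokine Cxcl9 had 41.0 and 0.933. These are 2 libraries with no replicate of either, so the difference has no replicate check. Of the 18 genes of this list, 15 were tested for age and none passed by limma, with 3 lower and none higher at an unadjusted p below 0.05 (9.94% and 6.96% of all genes) and a median log2 change of -0.12. Cxcl9 passed the filter through 2M alone, so its lower place in 24M was nearly fixed. Gbp3 had 5.1 FPKM in 24M_1 and 5.3 in 24M_2, against 6.71 in 2M_1 and 6.59 in 2M_2 (limma adjusted p = 0.175). Iigp1 had 5.92 FPKM in 24M_1 and 6.59 in 24M_2, against 7.81 in 2M_1 and 10.3 in 2M_2 (limma adjusted p = 0.201). Gbp2 had 6.26 and 4.69 FPKM in 24M_1 and 24M_2, against 7.27 and 9.16 in 2M_1 and 2M_2 (limma adjusted p = 0.218).

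**Figure D5:**
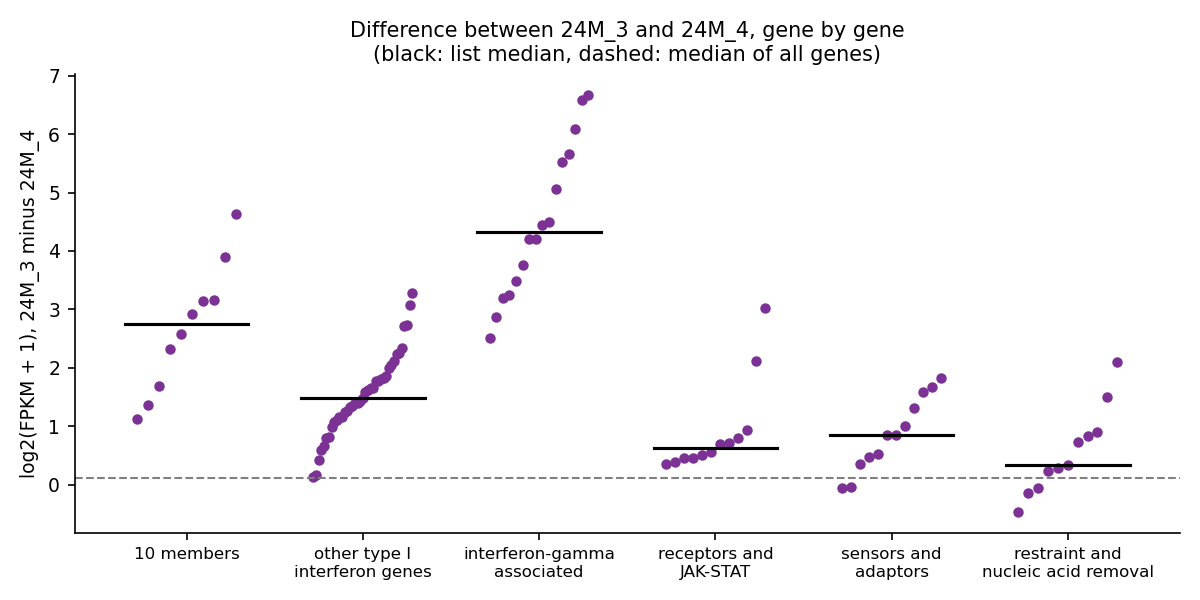
Log2(FPKM + 1) in 24M_3 minus that in 24M_4 for each gene of the members and of the other interferon lists, with list medians as black bars and the median of all genes, 0.11, as a dashed line. The medians are 2.76 for the members, 1.47 for other type I genes and 4.32 for genes associated with interferon-gamma.

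Among the 5 genes whose pattern over the 6 libraries was most like the mean of the members were Irf1, Parp14, F830016B08Rik and Gbp9. Likeness was the Euclidean distance between profiles of log2(FPKM + 1), each centred over the 6 libraries, among 11488 non-member genes listed in both tables with a mean of at least 1 FPKM. The distances were 0.304 for Irf1, 0.339 for Parp14, 0.436 for F830016B08Rik and 0.443 for Gbp9. Irf1, a transcription factor induced by interferons, had 4.29 FPKM in 24M_1, 4.22 in 24M_2, 23.4 in 24M_3 and 3.29 in 24M_4, against 4.73 in 2M_1 and 4.52 in 2M_2. The members themselves differed widely by the same measure, from 0.357 for Ifit1 to 1.82 for Bst2, 1.85 for Ifi44 and 1.95 for Ifit2. In the members' mean profile 24M_3 lay at 1.89 on the centred log2 scale and the other 5 libraries between -0.80 and -0.05, so likeness here is mostly likeness in 24M_3.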

How the data were processed

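The authors deposited FPKM per gene and library in 2 tables, per the file headers. The submitters' processing notes name mm10, DESeq2 1.20.0, featureCounts 1.5.0-p3 and HISAT2 2.0.5 without roles, and how FPKM was derived, and from which gene models, is not given in the sources used here. Low FPKM values of single-transcript genes did not fall on whole reads (at best 28.2% to 39.4% within 0.05 of a whole number), so depth is unknown and no counting interval is given.

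Genes were named from GENCODE by Ensembl ID (18 and 27 IDs had no symbol). In the table with both ages, 11437 genes reached 1 FPKM in 2 or more of its 4 libraries and were tested, and all 10 members passed this filter in all 4 libraries. limma 3.58.1 under R 4.3.3 modelled log2(FPKM + 1) by age alone, with intensity trend and robust variance, and Benjamini-Hochberg adjustment over all genes tested at 0.05. The fit was tested on simulated data. The tables were made separately, so 24M_3 and 24M_4 entered no test of age. Gene names in the text follow a rule: all members, up to 4 genes per pathway list by smallest p, and the 5 genes most like the members, with some items not reported here. Members and lists were chosen with earlier results of these data known. Alternatives covered the pseudocount, filter, moderation, scaling, replicate block, shared spread and each library left out.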

Additional observations from a re-analysis of the deposited data

Results flagged for a closer look

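In 4 members a single 24M library stood far from the other 3: its gap to the nearest, as a share of the whole range on the log2(FPKM + 1) scale, was above Dixon's 95% critical value, which chance passes in about 1 of 20 groups. The library was 24M_3 each time. It stood at 5.39 for Isg15, 3.79 for Oasl2, 3.73 for Irf7 and 2.73 for Usp18. For Bst2 the share was 0.821, just under that value. All 4 values come from the same library, so they are not separate observations. The 4 libraries come from a pair of tables made separately, and 24M_4, of the same table as 24M_3, did not stand apart.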

How the results depend on the processing

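Each member's change kept its direction with another pseudocount, under both scalings and with each library left out; the other alternatives leave a log2 change as it is (the sum with Ifit3b moves Ifit3 alone). Sizes moved. With a library left out the log2 change ran from -0.96 to -0.88 for Ifit3, -0.95 to -0.68 for Ifit2, -0.39 to -0.27 for Ifit1, -0.55 to -0.25 for Ifi44, -0.50 to -0.14 for Rtp4, -0.32 to -0.12 for Usp18, -0.27 to -0.19 for Oasl2, -0.20 to -0.04 for Isg15, -0.12 to -0.03 for Irf7 and 0.08 to 0.12 for Bst2. For Irf7 it was -0.002 by quantile normalization. Ifit3 stayed past the threshold in 8 alternatives and was lost in 4, and its limma adjusted p ran from 0.0122 to 0.958. Nothing shows that the replicate numbers pair the libraries. Deviations of same-numbered libraries had a correlation of -0.059 over genes, but with 2 pairs this cannot exclude a pairing. With the replicate block 43 genes and 0 members passed, and Ifit3 had a limma adjusted p of 0.0523. With the spread shared with 24M_3 and 24M_4, 8 genes and 0 members passed. Without trend and robust variance 108 genes passed. With a library left out, 0 to 126 genes and 0 to 1 members passed, with 0 genes and 0 members without 2M_1 or without 2M_2 (limma, 1215 and 1452 genes at an unadjusted p below 0.05), where the single 2M library left is taken to spread as the 24M libraries do. The median log2 change of the members was -0.397 with a pseudocount of 0.1, -0.193 by quantile normalization and -0.294 to -0.185 with a library left out. No gene of the pathway lists passed in any alternative. The share of higher calls was 87 of 180 with deposited values, 89 of 165 after median centring, 73 of 137 with a pseudocount of 0.1, and 35 of 126 without 24M_2. With 2 libraries per age and unknown depth, small changes of members near 1 FPKM cannot be resolved.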

Other observations

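The ratio of a member to Bst2 within a library does not depend on how that library was scaled. This ratio was chosen after the values were seen. Relative to 2M, Bst2 stood higher than any other member in 24M_3 (17.4 times the 2M mean), in 24M_4 (182%) and in 24M_1 and 24M_2, so the choice of Bst2 fixed that the ratios lie lower in 24M, and their direction supports nothing. The ratio of Ifit3 to Bst2 was 1.53 in 24M_1, 1.52 in 24M_2, 0.625 in 24M_3 and 0.334 in 24M_4, against 3.29 in 2M_1 and 3.19 in 2M_2. That of Ifi44 was 0.359, 0.465, 0.0333 and 0.108 in 24M_1 to 24M_4, against 0.668 in 2M_1 and 0.584 in 2M_2. For Isg15 the spread was narrow, with 0.292, 0.337, 0.295 and 0.255 in 24M_1 to 24M_4, against 0.405 in 2M_1 and 0.358 in 2M_2. All ratios share the level of Bst2, and no test was made. Reading these ratios across the tables assumes that both tables used the same gene models, which is not stated.

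Socs1, an inhibitor of interferon signalling that was named after its values were seen, is listed in the separate table alone, at 5.78 FPKM in 24M_3 and 0.380 in 24M_4.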
